A study of Mus musculus with 36 samples.

Results

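The 10 genes described here mark neurons that lie outside the dopamine cell groups of the ventral midbrain: 7 are known from the brainstem and dorsal midbrain (Slc6a5, Mab21l2, Pax7, Evx1, Evx2, Lbx1 and Barhl1) and 3 from the cerebellum (Cbln3, Gabra6 and Pcp2). They were chosen by symbol, with their levels in these libraries already known, and all 10 were found among the 19025 genes of the expression table. Because measured levels chose them, their own values are given as a description with no test, and tests are given only for other genes. The lists of those other genes were also chosen with earlier results of these data known, so their p-values are no independent evidence. The genes were read as reporters of tissue that borders a midbrain dissection.

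The data are RNA-seq of mouse brain, with 36 libraries from 6 regions labelled SN, VTA, Nac, STR, PFc and HP. Each region has 3 libraries labelled KI and 3 labelled WT. The KI mice carry, per the series title, a synonymous change in Maoa, the gene of monoamine oxidase A, and the WT mice do not. All libraries are labelled as C57 mice aged 6 to 7 weeks, and the labels do not give sex, zygosity or how many mice a library pools. The region labels are not spelled out. SN and VTA are called midbrain here, reading them as substantia nigra and ventral tegmental area. The titles number the libraries 1 to 3, and since nothing says that they came from separate animals, a p-value measures the spread between libraries, which may be technical.

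Neurons that release glycine sit in the brainstem and spinal cord, and they refill their terminals through the transporter encoded by Slc6a5, usually called GlyT2. The classes of brainstem neuron are set up in the embryo by homeobox and paired-box transcription factors, some of which stay on in the adult and so tell one nucleus from another. The cerebellum lies on top of the brainstem and is dominated by granule cells, whose synapses carry cerebellins and an unusual GABA receptor subunit, and by the large Purkinje cells that receive their input.

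RefSeq's table of GRCm38.p6 gave a promoter window for 9 of the 10 genes, from 250 bases before to 50 bases after a start site. For Evx2, Slc6a5, Pax7 and Barhl1 that site lies inside the gene span given here and not at its edge. Windows are shown for the 3 cerebellar genes and for Evx1 and Evx2, whose genes had a Pearson r of 0.88 (Evx1 with Evx2) or 0.98 to 0.99 (the cerebellar genes) over the 9 libraries that held the most Slc6a5. Each is written 5′ to 3′ on the strand of its gene. Capitals mark the short motifs searched for on both strands: TTGGCA, which is the half-site of nuclear factor I and reads TGCCAA on the other strand, CAGATG, an E-box, and TAATTA, a core bound by many homeodomain factors. Cbln3 lies at chr14:55878920-55884256 and its window at chr14:55884207-55884506 on the minus strand. Gabra6 lies at chr11:42306437-42321072, with its window at chr11:42321023-42321322, and Pcp2 at chr8:3623369-3625547, with its window at chr8:3625498-3625797, both on the minus strand. Evx1, at chr6:52313498-52318389, has its window at chr6:52313248-52313547 on the plus strand, and Evx2, at chr2:74652989-74661520, has its window at chr2:74659508-74659807 on the minus strand.
Cbln3: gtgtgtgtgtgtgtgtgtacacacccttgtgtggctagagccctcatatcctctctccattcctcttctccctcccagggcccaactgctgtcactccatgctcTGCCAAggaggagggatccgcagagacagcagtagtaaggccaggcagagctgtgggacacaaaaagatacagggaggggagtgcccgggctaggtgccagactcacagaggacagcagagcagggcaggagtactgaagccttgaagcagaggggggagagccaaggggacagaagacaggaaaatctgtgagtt
Gabra6: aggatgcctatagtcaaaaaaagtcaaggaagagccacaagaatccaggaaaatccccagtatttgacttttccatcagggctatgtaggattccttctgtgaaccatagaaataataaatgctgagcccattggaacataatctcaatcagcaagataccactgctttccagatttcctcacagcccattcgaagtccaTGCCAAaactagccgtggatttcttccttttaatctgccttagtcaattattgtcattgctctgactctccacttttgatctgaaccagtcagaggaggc
Pcp2: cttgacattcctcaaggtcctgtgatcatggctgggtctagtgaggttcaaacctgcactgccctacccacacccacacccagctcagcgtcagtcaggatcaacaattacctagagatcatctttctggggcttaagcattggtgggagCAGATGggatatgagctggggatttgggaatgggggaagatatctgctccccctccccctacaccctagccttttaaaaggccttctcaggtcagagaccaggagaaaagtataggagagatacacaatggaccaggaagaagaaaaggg
Evx1: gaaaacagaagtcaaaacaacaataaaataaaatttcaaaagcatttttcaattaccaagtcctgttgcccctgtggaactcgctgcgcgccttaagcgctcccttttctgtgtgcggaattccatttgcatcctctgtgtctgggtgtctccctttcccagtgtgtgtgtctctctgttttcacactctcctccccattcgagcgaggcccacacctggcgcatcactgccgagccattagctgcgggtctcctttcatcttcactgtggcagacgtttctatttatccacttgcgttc
Evx2: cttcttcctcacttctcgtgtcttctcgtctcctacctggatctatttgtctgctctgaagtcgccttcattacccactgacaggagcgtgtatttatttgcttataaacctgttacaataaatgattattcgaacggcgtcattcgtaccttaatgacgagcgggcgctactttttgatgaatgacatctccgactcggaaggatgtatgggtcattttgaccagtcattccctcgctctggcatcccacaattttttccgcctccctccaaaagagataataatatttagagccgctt

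The Cbln3 and Gabra6 windows each held 1 TTGGCA half-site, which 14.4% of all 27025 windows in that table hold. The Pcp2 window held 1 CAGATG, which 17.2% hold, and no window shown held more than 1 match, so no match overlapped another. None of the 3 motifs was found in the windows of Evx1 and Evx2. Among the other genes, the Barhl1 window held 1 TAATTA, found in 5.31% of windows. A match describes the letters in a window and says nothing about binding. The remaining genes lie at chr7:49906984-49963864 (Slc6a5), chr3:86546050-86548283 (Mab21l2), chr4:139737059-139833530 (Pax7), chr19:45232684-45236841 (Lbx1) and chr2:28907680-28917984 (Barhl1). Mab21l2 lies within Lrba, Pcp2 overlaps Pet100, Evx1 overlaps Evx1os and Pax7 overlaps Gm46873. Evx1os and Gm46873 were not analysed here. Whether the counting used strand is not given in the sources used here, so reads of these overlapping genes cannot be told apart.

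Libraries held 15145623 to 18863508 counts, and 8 of the 36 were set apart for markers of a region other than their label: KI SN 1, KI SN 2, WT VTA 3, KI Nac 1, KI Nac 2, WT Nac 2, KI STR 3 and KI HP 2. Of those labelled SN or VTA, KI SN 1, KI SN 2 and WT VTA 3 held 1.19, 0.776 and 0.579 CPM (counts scaled to a library total of 1000000) of Slc6a3, the dopamine transporter, against 238 to 1107 CPM in the other 9. The summed level of 12 dopamine neuron markers was 97.7, 97.0 and 121.5 CPM in those 3 libraries, with 3 or 4 of the 12 at 0, and 1167 to 3755 CPM in the other 9, with none at 0. KI SN 1 held 2951 CPM of Ttr, the choroid plexus transthyretin, and KI SN 2 and WT VTA 3 held 178 and 136 CPM of Drd1, the striatal dopamine receptor. The reverse was seen in KI Nac 1 and WT Nac 2, which held 965 and 192 CPM of Slc6a3. Markers of other tissue were not confined to the 8. KI PFc 1 held 2057 CPM of 10 summed striatal genes, against 240 to 423 CPM in the other PFc libraries. STR libraries held 3881 to 17205 CPM of 6 summed choroid plexus genes, and WT PFc 2 held 1332 CPM. KI SN 3 held 388 CPM of Ttr and 17.4 CPM of Drd1, against 7.73 to 50.1 CPM and 2.79 to 3.87 CPM in WT SN. SN fold changes are given also with KI SN 3 as the only KI library, and VTA fold changes also without WT VTA 3.

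KI VTA 3 stood apart in another way. There were 334 genes with at least 1 CPM in KI VTA 1 or KI VTA 2 and a more than 2-fold difference between them, and KI VTA 3 lay between the other 2 values for 98.2% of these. The same share was 19.4% to 83.6% for the 35 other libraries, each set against the other 2 of its group. The median gene lay 45.8% of the way from KI VTA 1 to KI VTA 2. Of the 10 genes described here, 6 lay between, and KI VTA 3 held 0.852 to 1.30 times the mean of KI VTA 1 and KI VTA 2 over all 10. Whether these libraries share RNA was not tested, and VTA fold changes are therefore also given without KI VTA 3.

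**Figure D1:**
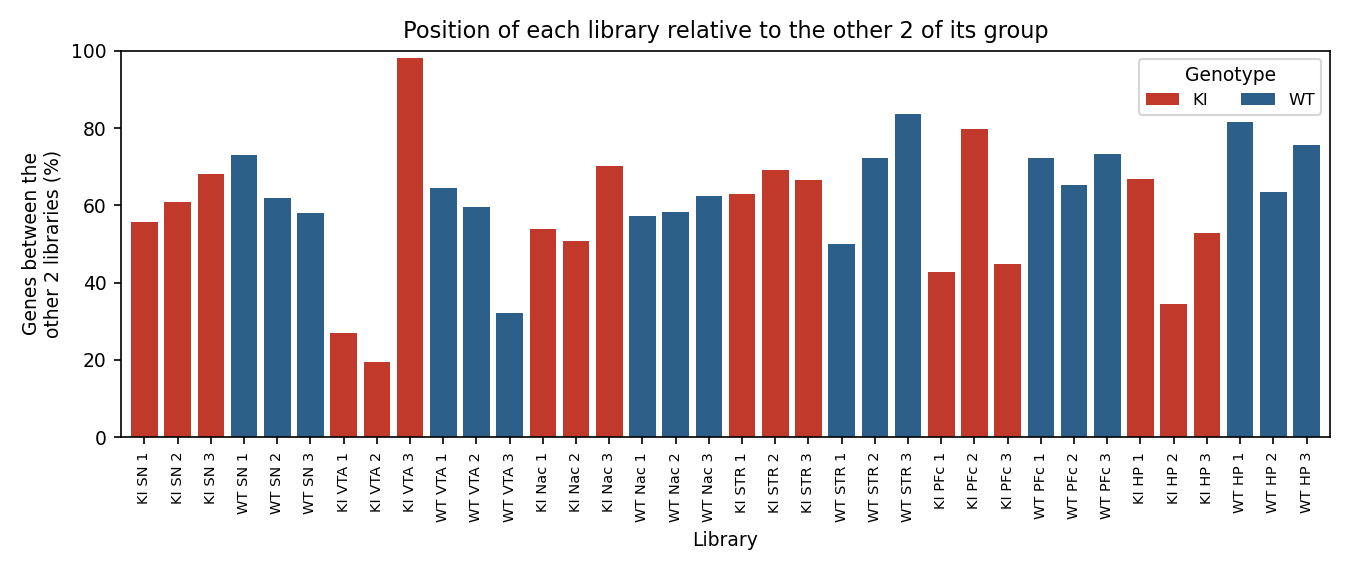
For each of the 36 libraries (horizontal axis, KI red and WT blue), the bar gives the percentage of genes differing more than 2-fold between the other 2 libraries of its group whose level in this library lay between them. KI VTA 3 reached 98.2%, and the other 35 libraries ranged from 19.4% to 83.6%.

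Slc6a5 was a gene of the midbrain-labelled libraries, present in some and almost absent from others. It reached 5 CPM or more in 9 of 36 libraries, which were 3 of 6 labelled SN, 5 of 6 labelled VTA and 1 of 6 labelled Nac. In the 18 HP, PFc and STR libraries its median was 0.109 CPM and its highest value was 0.607 CPM, 10 counts in KI PFc 3. The Nac library that held it was WT Nac 2, at 46.7 CPM, and the other 5 Nac libraries held 0 to 0.734 CPM.

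Among SN libraries the genotypes were far apart. KI SN 1, 2 and 3 held 0.264, 0.0597 and 0.897 CPM of Slc6a5, against 36.3, 62.2 and 147 CPM in WT SN 1, 2 and 3. Every KI value lay below every WT value, and the log2 fold change was -7.55 (SE 0.837). With KI SN 3 as the only KI library, since it alone held dopamine markers, the log2 fold change was -6.41 (SE 1.11), the lone library being assumed to vary like the WT ones. In bulk tissue, fewer cells of a type and less RNA per cell cannot be told apart.

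In VTA libraries the direction was the opposite and the groups overlapped. KI VTA 1, 2 and 3 held 80.4, 7.21 and 47.5 CPM of Slc6a5, against 13.8, 19.9 and 0.116 CPM in WT VTA 1, 2 and 3. KI VTA 2 lay below both of the WT libraries with dopamine markers, and WT VTA 3 lay at the level of the HP, PFc and STR libraries. The log2 fold change was 2.04 (SE 1.26), 1.46 (SE 0.743) without WT VTA 3 and 2.01 (SE 1.49) without KI VTA 3.

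The order of the group means was WT SN at 81.9 ± 58.1 CPM, KI VTA at 45.0 ± 36.6, WT Nac at 15.7 ± 26.8 and WT VTA at 11.3 ± 10.1 (SD, n = 3 each). Each pair of neighbours in this order differed by less than the larger of its 2 SDs, and each of the other 8 groups averaged under 0.5 CPM. The WT Nac mean came almost wholly from WT Nac 2. Per length, Slc6a5 averaged 11.4 ± 9.38 TPM (counts per length, scaled to the same total) in KI VTA and 24.1 ± 19.0 TPM in WT SN.

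The 9 libraries with Slc6a5 at 5 CPM or more all held Slc6a3, at 192 to 1107 CPM. Among libraries that held Slc6a3, Slc6a5 varied widely relative to it. Its share of the summed counts of Slc6a5 and Slc6a3 was 0.213% in KI SN 3 (95% exact Clopper-Pearson interval 0.116% to 0.357%), against 3.17%, 18.9% and 23.8% in WT SN 1, 2 and 3. In VTA it was 17.6%, 1.40% and 9.95% in KI libraries 1 to 3, against 2.28% and 7.73% in WT VTA 1 and 2. KI Nac 1, which held the second highest Slc6a3 level of the 18 SN, VTA and Nac libraries, had a share of 0.0760%, against 19.5% in WT Nac 2. Intervals cover counting error only.

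**Figure D2:**
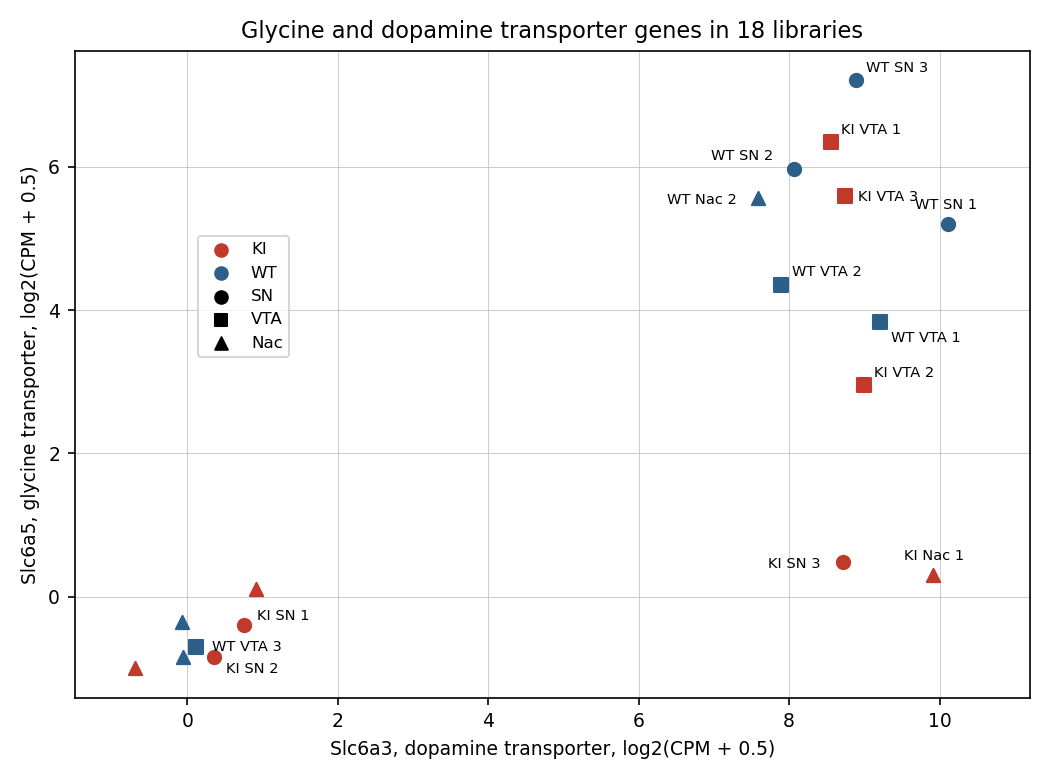
Level of the glycine transporter gene Slc6a5 against that of the dopamine transporter gene Slc6a3 in the 18 SN, VTA and Nac libraries, both as log2(CPM + 0.5), with KI red and WT blue and the region given by the symbol. KI SN 3 and KI Nac 1 lie at the lower right, with 421 and 965 CPM of Slc6a3 and under 1 CPM of Slc6a5, while 9 libraries lie at the upper right.

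Evx1 and Evx2, even-skipped homeobox factors known from commissural interneurons of the hindbrain and spinal cord, were at 0 counts in 26 and 25 of the 36 libraries, where Slc6a5 was at 0 in 6. Both were at 0 counts in all 18 HP, PFc and STR libraries, where 3 counts would correspond to 0.00960 CPM over the 18. Evx1 was at 0 in all 3 KI SN libraries, against 2.46, 3.35 and 3.01 CPM in WT SN 1, 2 and 3. Set against a floor of 3 counts over the group, that is at least 46.5-fold lower in KI, and at least 15.3-fold lower with KI SN 3 as the only KI library. Evx2 had 1 count in KI SN, in KI SN 3, and 109 counts in WT SN, a KI to WT ratio of 0.0103 with a 95% counting interval of 0.000257 to 0.0583. Against KI SN 3 alone the ratio was 0.0312, with an interval of 0.000783 to 0.178. Both intervals cover counting error only and leave out the spread between libraries.

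In VTA the pair lay the other way. Evx1 held 1.75, 1.82 and 1.94 CPM in KI VTA 1, 2 and 3, against 0.571, 1.13 and 0 CPM in WT VTA 1, 2 and 3. Evx2 held 2.20, 2.18 and 2.13 CPM in the same KI libraries, against 0.400, 1.24 and 0 CPM in the WT ones. Each KI value of either gene lay above each WT value, and the 3 KI libraries lay close together, which Slc6a5 did not. The log2 fold changes were 1.70 (SE 0.827) for Evx1 and 1.99 (SE 0.858) for Evx2, and without WT VTA 3 they were 1.14 (SE 0.371) and 1.43 (SE 0.433). Without KI VTA 3 they were 1.67 (SE 1.04) and 2.01 (SE 1.07).

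Evx1 made up 44.3% to 47.7% of the summed counts of the pair in KI VTA libraries and 55.2% to 63.2% in WT SN libraries, and every one of these 6 intervals overlapped the others. WT Nac 2 held the highest level of both genes, 3.78 CPM of Evx1 and 4.18 CPM of Evx2, at a share of 47.5%. Per length the pair averaged 1.35 ± 0.155 and 0.920 ± 0.0361 TPM in KI VTA, and 2.27 ± 0.388 and 0.960 ± 0.282 TPM in WT SN (Evx1 first, SD, n = 3).

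Evx1 and Evx2 stand at the ends of the Hoxa and Hoxd clusters, whose genes order the hindbrain and spinal cord along the body axis, so their Hox neighbours were examined too. Of 6 Hoxd genes in the table, the 2 that reached 10 counts in some library, Hoxd1 and Hoxd3, lay at the far side of the cluster from Evx2. Hoxd13, 6.71 kb from Evx2, peaked at 7 counts, in WT Nac 2, and Hoxa10, 72.6 kb from Evx1, at 1 count. Hoxd4, with at most 9 counts, fell just short. Hoxa4 reached 63 counts, in WT SN 3. The summed Hox level was 1 CPM or more in 10 libraries, which were the same 9 that held Slc6a5 at 5 CPM or more, and KI Nac 1 at 1.47 CPM.

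Lbx1, a homeobox factor of dorsal hindbrain and spinal interneurons, had the fewest counts of the 10, with at most 33 in a library. It had 0, 1 and 2 counts in KI SN 1, 2 and 3, against 10, 33 and 20 counts in WT SN 1, 2 and 3, and was too low for the fit across genes. The KI to WT ratio was 0.0532, with a 95% counting interval of 0.0107 to 0.163, and with KI SN 3 as the only KI library it was 0.108, with an interval of 0.0128 to 0.407. In VTA it had 21, 14 and 23 counts in KI VTA 1, 2 and 3, against 0, 1 and 1 counts in WT VTA 1, 2 and 3, a ratio of 31.8 with an interval of 8.41 to 269. The ratio was 42.7 (7.36 to 1713) without WT VTA 3 and 28.8 (7.39 to 247) without KI VTA 3. Unlike the other brainstem genes, it was thus near 0 also in WT VTA 1 and WT VTA 2, which held dopamine markers. Its level in WT Nac 2 was 0.339 CPM, below the 0.571 to 1.90 CPM of the WT SN libraries. The counting intervals rest on counts pooled over libraries and leave out the spread between libraries, so they are no test of genotype.

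Pax7, a paired-box factor of the dorsal midbrain and of muscle stem cells, was highest in WT VTA. KI VTA 1, 2 and 3 held 7.32, 5.40 and 5.70 CPM, against 10.2, 22.1 and 0 CPM in WT VTA 1, 2 and 3. The groups overlapped through WT VTA 3 alone, the only VTA library without Pax7. The log2 fold change was -0.77 (SE 1.19), -1.36 (SE 0.303) without WT VTA 3 and -0.72 (SE 1.5) without KI VTA 3. In SN, Pax7 had 0, 0 and 0.256 CPM in KI SN 1, 2 and 3, against 0.971, 4.96 and 6.51 CPM in WT SN 1, 2 and 3, a log2 fold change of -5.41 (SE 1.12), and of -3.90 (SE 1.33) with KI SN 3 as the only KI library.

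Barhl1, a homeobox factor known from granule cell precursors and also from midbrain and hindbrain neurons, was grouped with the brainstem genes. KI SN 1, 2 and 3 held 0.132, 0 and 0.961 CPM, against 6.29, 2.19 and 9.63 CPM in WT SN 1, 2 and 3. KI VTA 1, 2 and 3 held 4.79, 5.40 and 6.64 CPM, against 12.6, 12.4 and 0.0579 CPM in WT VTA 1, 2 and 3. It did not rise with the cerebellar genes: KI VTA 2, with the highest Cbln3, held 5.40 CPM of Barhl1. The log2 fold change in SN was -3.95 (SE 1.02), and -2.56 (SE 0.901) with KI SN 3 as the only KI library. In VTA it was -0.54 (SE 1.07), -1.12 (SE 0.170) without WT VTA 3 and -0.67 (SE 1.34) without KI VTA 3. KI Nac 1 held 3.37 CPM of Barhl1 beside 0.734 CPM of Slc6a5, so that Barhl1 made up 82.1% of their summed counts there, against 10.6% in WT Nac 2.

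Mab21l2, which encodes a nucleotidyltransferase-fold protein needed for eye development and expressed in the dorsal midbrain, was second to Slc6a5 among the brainstem genes in level per length in KI VTA and WT SN. KI SN 1, 2 and 3 held 0.0660, 0.0597 and 0.449 CPM, against 7.43, 11.7 and 23.1 CPM in WT SN 1, 2 and 3, a log2 fold change of -6.07 (SE 0.740), and of -4.87 (SE 0.894) with KI SN 3 as the only KI library. KI VTA 1, 2 and 3 held 16.4, 9.03 and 11.8 CPM, against 18.2, 22.4 and 0.753 CPM in WT VTA 1, 2 and 3. As for Pax7 and Barhl1, both WT VTA libraries with dopamine markers lay above all 3 KI VTA libraries. The log2 fold change in VTA was -0.11 (SE 0.899), -0.67 (SE 0.232) without WT VTA 3 and -0.07 (SE 1.1) without KI VTA 3. It averaged 10.7 ± 3.25 TPM in KI VTA and 13.9 ± 9.27 TPM in WT SN (SD, n = 3 each).

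Counted together, 7 of the 10 genes lay lower in every KI than in every WT library of SN, all 7 of them brainstem genes, and none lay higher. Over all genes tested in SN, 17.5% were lower in this way and 7.78% higher. With KI SN 3 as the only KI library the same 7 were lower and 1, Pcp2, was higher, against 38.3% and 24% of all genes. In VTA, 5 of the 10 were higher in every KI library and none lower, against 11% and 12.4% of all genes. The 5 were Evx1, Evx2, Lbx1, Cbln3 and Gabra6, the last by 5 counts in KI VTA 1 against 4 in WT VTA 2. Without WT VTA 3 the same 5 were higher and 3 (Mab21l2, Pax7 and Barhl1) were lower, against 21.4% and 27.7%. Leaving out KI VTA 3 changed neither list, with WT VTA 3 (12.9% and 13.6% of all genes) or without it (24.4% and 30.2%). Because these levels chose the genes, nothing is read from the counts.

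**Figure D3:**
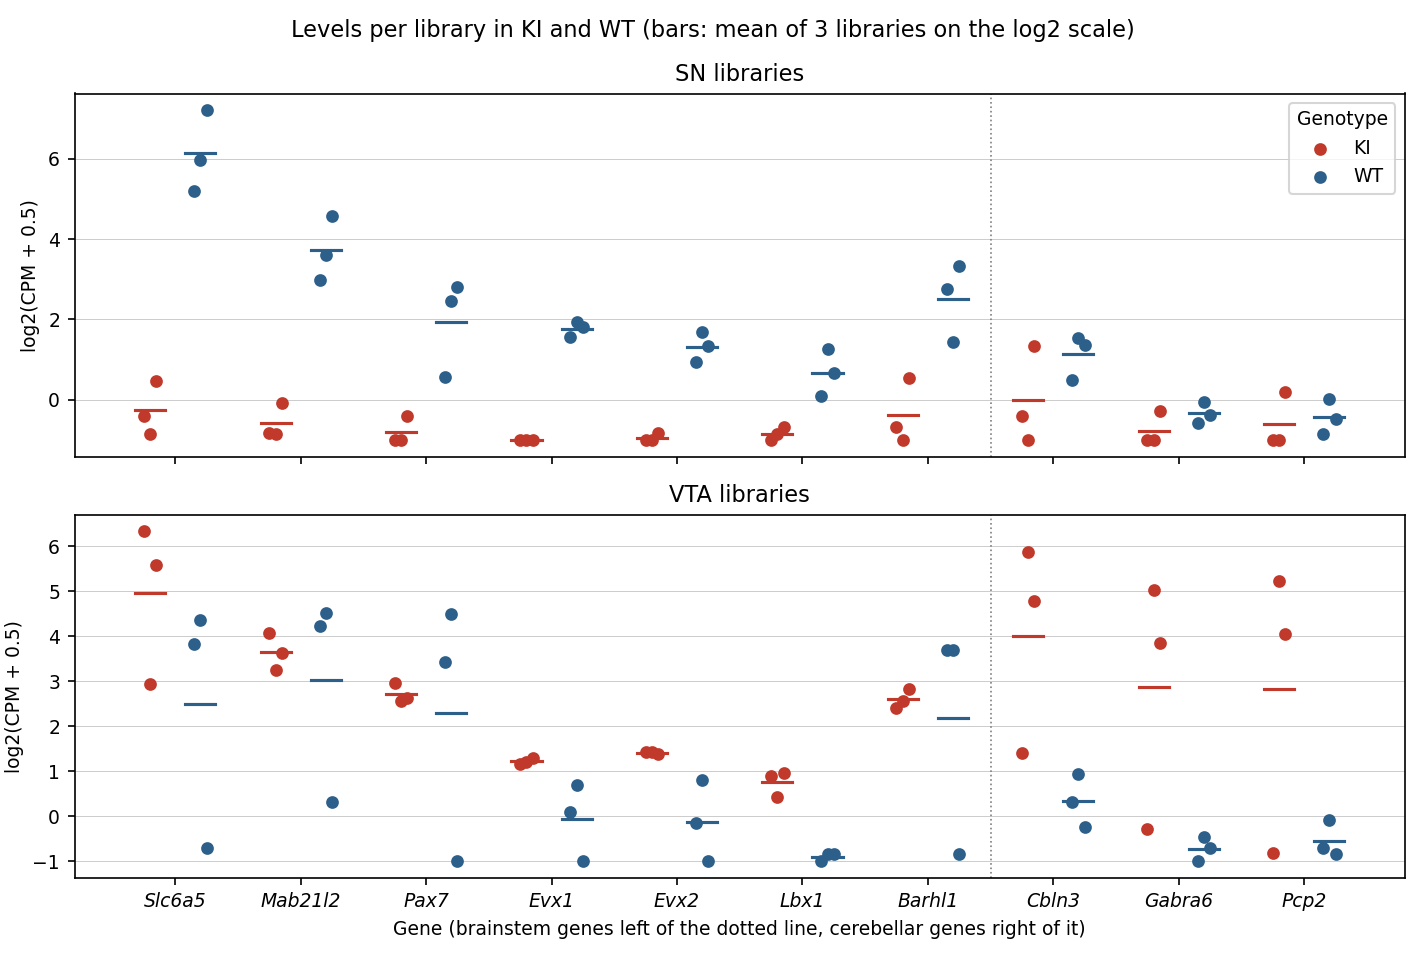
Level of each of the 10 genes as log2(CPM + 0.5) in the SN libraries (upper panel) and VTA libraries (lower panel), with KI (red) left of WT (blue), a point per library and a bar at the mean of 3. In SN the 7 brainstem genes have no KI point as high as the lowest WT point, and in VTA the 3 cerebellar genes are high in KI VTA 2 and KI VTA 3 and low in KI VTA 1 and in all WT libraries.

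The cerebellar genes each exceeded 10 CPM in 2 of the 36 libraries, KI VTA 2 and KI VTA 3. Cbln3, the cerebellin secreted by granule cells, held 2.14, 57.8 and 27.0 CPM in KI VTA 1, 2 and 3, against 0.742, 1.41 and 0.347 CPM in WT VTA 1, 2 and 3. Gabra6, the GABA-A receptor subunit of granule cells, held 0.324, 32.2 and 13.8 CPM in the same KI libraries, against 0, 0.226 and 0.116 CPM in the WT ones. Pcp2, a regulator of G protein signalling in Purkinje cells, held 0.0648, 37.3 and 16.2 CPM, against 0.114, 0.452 and 0.0579 CPM.

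For all 3 genes KI VTA 2 was the highest, KI VTA 3 came next, and KI VTA 1 lay near the WT libraries. The summed counts of the 3 genes were 39, 2100 and 910 in KI VTA 1, 2 and 3. The proportions of the 3 were alike in KI VTA 2 and KI VTA 3: Gabra6 made up 35.8% and 33.9% of its sum with Cbln3, with 95% exact Clopper-Pearson intervals of 33.3% to 38.3% and 30.3% to 37.7%. Pcp2 made up 39.2% and 37.4% of its sum with Cbln3, with intervals of 36.8% to 41.7% and 33.8% to 41.2%. Cbln3 was 88.9% of its sum with Slc6a5 in KI VTA 2 and 36.2% in KI VTA 3, against 2.59% in KI VTA 1.

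The fitted log2 fold change of Cbln3 in VTA was 5.10 (SE 1.18), 4.76 (SE 1.22) without WT VTA 3 and 5.16 (SE 1.31) without KI VTA 3. Gabra6 and Pcp2, high only in KI VTA 2 and KI VTA 3, did not pass the low-count filter of that fit. Without WT VTA 3 they passed it through those KI libraries alone, at 7.02 (SE 1.86) and 5.96 (SE 1.74). Their fold changes describe those libraries only. Per length, Pcp2 was the most abundant of the 10 genes in KI VTA at 115.9 ± 122.5 TPM, beside 11.9 ± 12.3 for Gabra6 and 11.0 ± 10.6 for Cbln3 (SD, n = 3), each SD being about as large as its mean.

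Elsewhere the cerebellar genes were low. In SN, Cbln3 held 0.264, 0 and 2.05 CPM in KI SN 1, 2 and 3, against 0.914, 2.42 and 2.08 CPM in WT SN 1, 2 and 3. Its log2 fold change was -1.14 (SE 1.05) with all libraries and 0.26 (SE 0.585) with KI SN 3 as the only KI library, a change of sign. Pcp2 was highest in KI SN 3, at 0.641 CPM or 10 counts. WT SN libraries held 0.0571 to 0.520 CPM of Pcp2, at most 9 counts, in WT SN 2. Of the 18 HP, PFc and STR libraries, KI PFc 3 held the most of all 3 genes, with 39 counts of Cbln3, 12 of Gabra6 and 7 of Pcp2.

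Other cerebellar genes followed this order of libraries in part. The share of all genes in this order was not computed, so nothing is read from the counts that follow. KI VTA 3 lay between KI VTA 1 and KI VTA 2 for 98.2% of the 334 genes described above. Of 20 listed granule and Purkinje cell genes, 15 were highest in KI VTA 2 among the VTA libraries, and 10 of these had KI VTA 3 second. Of the rest, 4 were highest elsewhere: Gabrd and Itpr1 in WT VTA 3, at 78.3 and 645 CPM against 22.4 and 516 CPM in KI VTA 2, Zic2 in WT VTA 1 and Pax6 in KI VTA 1. Car8, a carbonic anhydrase-related protein of Purkinje cells, held 20.5, 230 and 111 CPM in KI VTA 1, 2 and 3, against 14.8, 20.0 and 20.3 CPM in WT VTA 1, 2 and 3. Ppp1r17, a phosphatase inhibitor of Purkinje cells, held 1.94, 29.0 and 14.4 CPM in the same KI libraries, against 3.37, 2.77 and 1.04 CPM in the WT ones. Both were far higher in KI VTA 2 and KI VTA 3 than in the 4 other libraries. Fat2, a protocadherin of granule cells, held 10.9, 35.0 and 19.6 CPM in KI VTA 1, 2 and 3, against 23.0, 4.52 and 0.116 CPM in WT VTA 1, 2 and 3. Atoh1, the factor of granule cell precursors, was at 0 in all 6 VTA libraries.

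**Figure D4:**
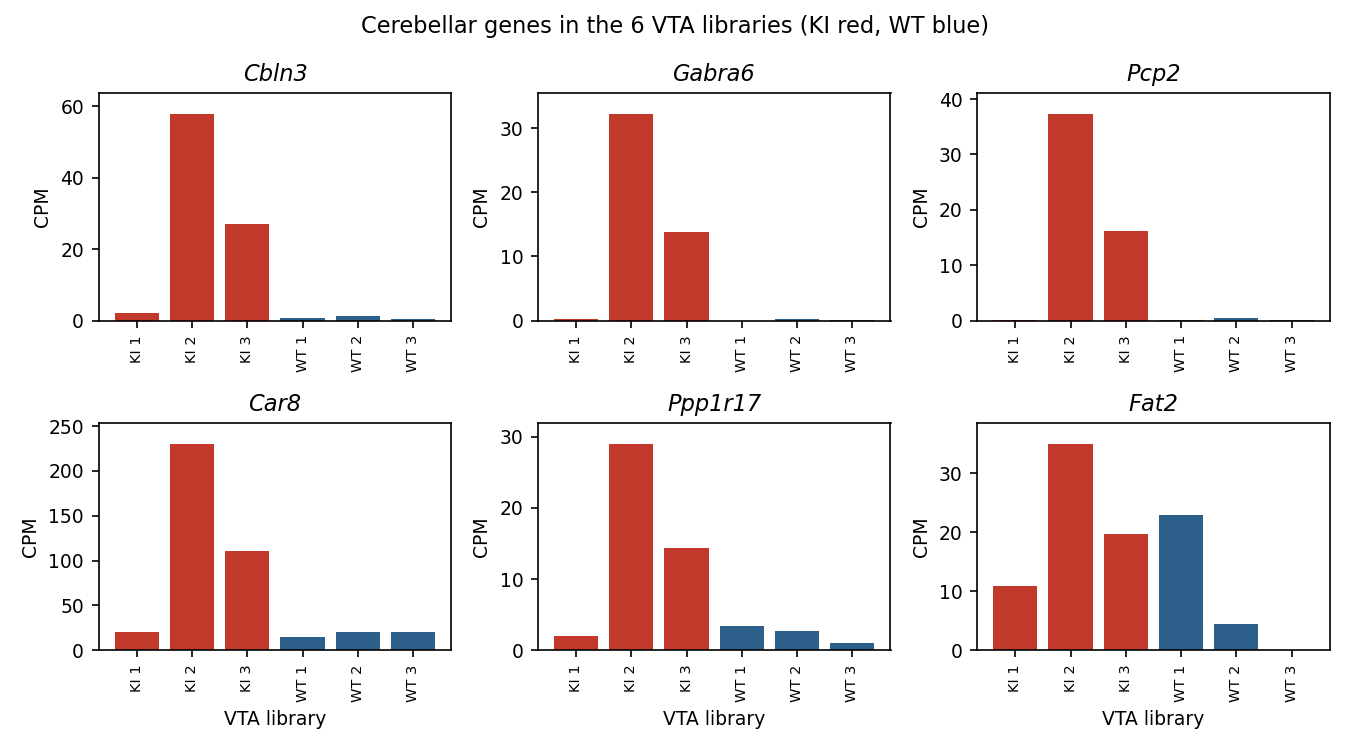
CPM of 6 cerebellar genes in the 6 VTA libraries, KI (red) left of WT (blue), each bar a single library. The upper row shows Cbln3, Gabra6 and Pcp2, and the lower row shows Car8, Ppp1r17 and Fat2. KI VTA 2 is the highest bar in all 6 panels, at 57.8 CPM for Cbln3, and KI VTA 3 is second in all but Fat2, where WT VTA 1 held 23.0 CPM.

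The brainstem genes also differed from each other among the 9 libraries that held Slc6a5 at 5 CPM or more. On the log2(CPM + 0.5) scale, Evx1 correlated with Evx2 (Pearson r 0.88), Lbx1 (0.61) and Slc6a5 (0.60) over these 9, and Mab21l2 with Pax7 (0.81) and Barhl1 (0.55). Across the 2 sets r was negative except for Slc6a5 with Mab21l2 (0.30). Barhl1 had the lowest values, -0.75 with Lbx1, -0.67 with Evx2 and -0.65 with Evx1, and Pax7 had r -0.49 with Evx1. Other pairs were weaker, such as Slc6a5 with Pax7 (-0.17) and Evx2 with Pax7 (-0.21). The sets were themselves drawn from these 9 libraries. Evx1, Evx2 and Lbx1 were higher in each KI VTA and each WT SN library than in WT VTA 1 and WT VTA 2, the libraries in which Pax7 and Barhl1 reached their highest levels. The 3 cerebellar genes had r of 0.98 to 0.99 with each other over the same 9, where KI VTA 2 and KI VTA 3 hold nearly all of their counts. These libraries share depth and dissection, so the values are descriptions with no p.

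Shares within a library, which do not depend on its depth, divided the KI VTA libraries. Pax7 made up 8.35%, 42.8% and 10.7% of the summed counts of Pax7 and Slc6a5 in KI VTA 1, 2 and 3, against 42.5% and 52.6% in WT VTA 1 and 2. In WT SN 1, 2 and 3 it made up 2.61%, 7.39% and 4.23%, and in WT Nac 2 12.3%. Mab21l2 made up 16.9%, 55.6% and 20.0% of its sum with Slc6a5 in KI VTA 1, 2 and 3, against 56.9% and 52.9% in WT VTA 1 and 2, with 13.6% to 17.0% in WT SN. In both shares the 95% exact interval of KI VTA 2 overlapped those of WT VTA 1 and WT VTA 2 and lay above that of KI VTA 1.

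**Figure D5:**
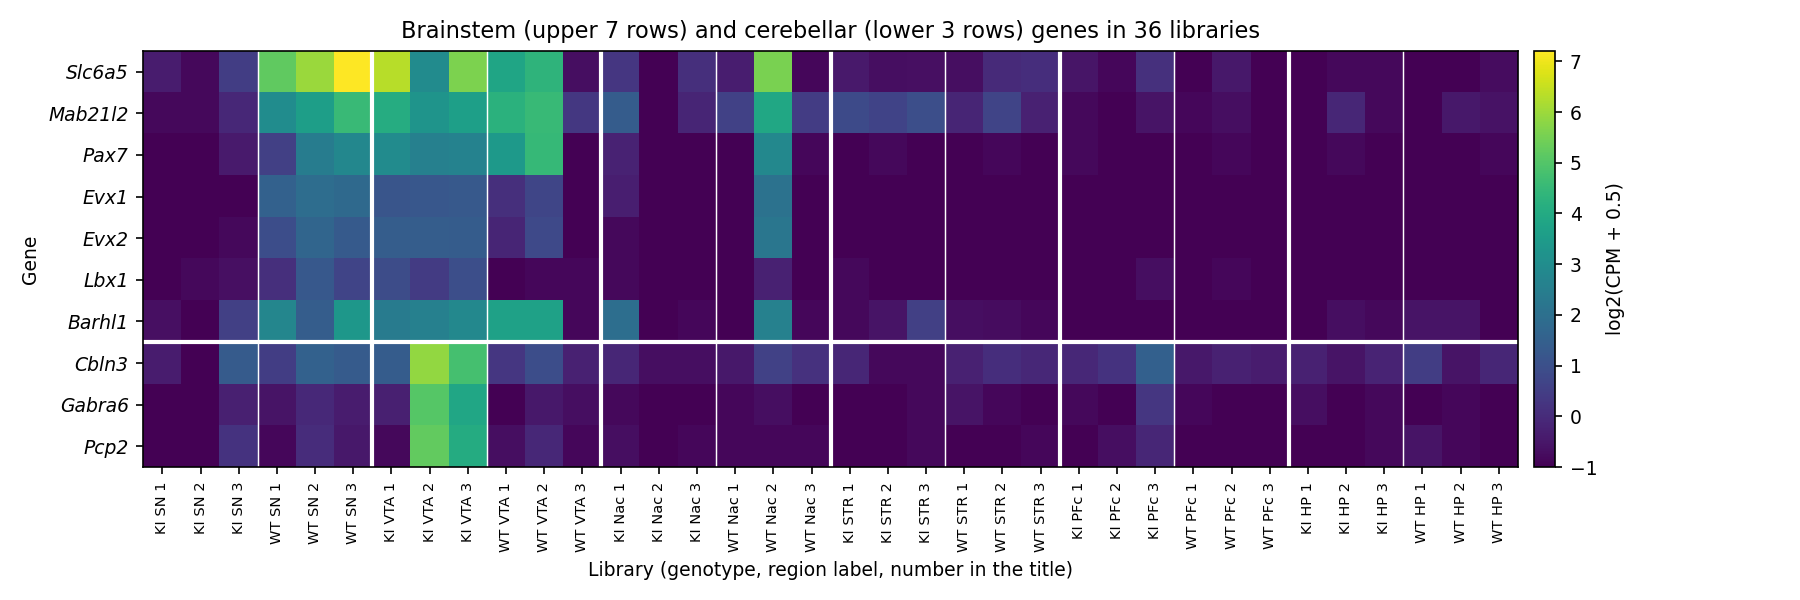
Levels of the 10 genes (rows, 7 brainstem genes above the white line and 3 cerebellar genes below it) in the 36 libraries (columns, grouped by region with KI left of WT), coloured by log2(CPM + 0.5). Bright columns for the brainstem genes are the 3 KI VTA libraries, the 3 WT SN libraries, WT VTA 1, WT VTA 2 and WT Nac 2, and the cerebellar genes are bright in KI VTA 2 and KI VTA 3.

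Over all 36 libraries, r was 0.66 to 0.99 among the 21 pairs of brainstem genes (median 0.89), 0.94 to 0.98 among the 3 cerebellar pairs and 0.39 to 0.72 across the 2 sets. These values mostly follow the split into libraries that held the genes and libraries that did not. The genes with the most similar pattern over the 36 libraries, outside the 10, were Irx4 for Slc6a5 (r 0.97), Evx1 (0.95) and Evx2 (0.94), and Slc6a2 for Lbx1 (0.92). For Mab21l2 the nearest was Mmel1 (0.96), for Pax7 it was Slc6a4 (0.97), ahead of Tph2 (0.96), and for Barhl1 it was Gata3 (0.97). The cerebellar genes had lower nearest values, Crtam for Cbln3 (0.85) and Arhgef33 for Gabra6 (0.89) and Pcp2 (0.90). Irx4 was among the 3 nearest genes of 4 members of the brainstem set, and Slc6a2 and Crtam were among those of 3 genes each.

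Lists of other genes give the setting. In WT mice, SN and VTA were set against Nac, STR, PFc and HP with edgeR's quasi-likelihood test and Benjamini-Hochberg adjustment over all 15094 genes tested, of which 37.9% passed, 18.8% higher and 19.1% lower in midbrain. Of 14 glycine transmission genes tested, 7 were higher and 1 lower in midbrain, with a median log2 fold change of 0.35 where all genes had 0.00. Glra1, the adult glycine receptor subunit, was at 1.94 ± 2.30 CPM in midbrain (SD, n = 6) and 0.703 ± 1.84 CPM in the other regions (n = 12), a log2 fold change of 2.52 (SE 0.835, adjusted p = 0.0280). Slc6a9, the glial glycine transporter, was higher by 1.32 (SE 0.217, adjusted p = 0.000654). Gldc, which breaks glycine down, was lower, at -1.34 (SE 0.473, adjusted p = 0.0370).

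The transcription factor list was higher almost throughout. Of 17 brainstem and dorsal midbrain factors tested, 16 were higher in WT midbrain and none was lower, with a median log2 fold change of 3.88. The largest were En1 (7.56, SE 1.31), Pou4f2 (6.52, SE 1.64), Gata3 (6.41, SE 1.21) and Lmx1b (5.39, SE 0.914). In this order they were at 28.6, 0.428, 9.24 and 20.6 CPM in KI Nac 1, which held 965 CPM of Slc6a3 and 0.734 CPM of Slc6a5. Whether the higher level of the list came from bordering tissue was not tested. All 4 Hox genes tested were higher, at 5.16 to 6.24. Of 12 dopamine neuron genes 11 were higher, and of 5 serotonin and noradrenaline neuron genes 4 were higher, led by Slc6a4, the serotonin transporter, at 6.39 (SE 1.19).

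Cerebellar lists were divided in the same comparison, where 18.8% of all genes were higher and 19.1% lower. Beside those shares, nothing is read from the counts that follow. Of 9 granule cell genes tested, 2 were higher (Fat2 at 5.40, SE 0.781, and Cbln1 at 1.18, SE 0.434) and 2 lower (Neurod1 at -1.28 and Grin2c at -0.49). Of 9 Purkinje cell genes, 3 were higher (Ppp1r17 at 2.11, Slc1a6 at 0.90 and Car8 at 0.51) and 1 lower (Itpr1 at -1.49). Without WT VTA 3 and WT Nac 2, 56.5% of all genes passed, 27.6% higher and 28.9% lower. The lists then gave 9 higher and 1 lower for glycine transmission, 16 and 0 for the factors and 7 and 0 for Hox genes. Granule cells gave 2 and 3, and Purkinje cells 3 and 2.

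In KI mice the same comparison called 0 of 15084 genes with edgeR, although 3269 had an unadjusted p under 0.05 and DESeq2 called 986, which is 6.75%. On leaving out 1 library, edgeR called 3161 genes without KI Nac 1, 60 without KI SN 2, 19 without KI HP 2 and 0 to 3 without any other. The next fit leaves out the 6 KI libraries set apart above and keeps KI PFc 1, which held striatal markers. Without the 6 KI libraries with markers of another region, which leaves KI SN 3 as the only SN library, edgeR called 4972 genes, 32.2% of those tested. Then 6 of 13 glycine transmission genes were higher in midbrain and 1 lower, led by Glra1 at 3.45 (SE 0.605, adjusted p = 0.00330). The same fit gave 13 of 18 factors higher and none lower. Of granule cell genes 2 of 9 were higher and 1 lower, and of Purkinje cell genes 4 of 10 were higher, among them Ppp1r17 at 4.20 (SE 0.732) and Car8 at 2.10 (SE 0.527).

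Between genotypes in SN, edgeR called 0 of 14418 genes, and 383 when KI SN 3 was left out. Before adjustment, 2531 had a p under 0.05. DESeq2 called 990, which is 6.26% of the genes it tested. In the DESeq2 fit, 3 of 14 glycine transmission genes were lower in KI (Glra1 at -3.32, Slc6a9 at -1.47 and Glrb, the receptor's anchoring subunit, at -0.70) and 1, Gldc, was higher at 1.67 (SE 0.422, adjusted p = 0.00407). Of 18 factors, 7 were lower and none higher, led in adjusted p by Mab21l1 at -3.25 (SE 0.598, adjusted p = 1.97e-05). Of 8 Hox genes 5 were lower, and of 5 serotonin and noradrenaline genes 4 were lower. The granule cell and dopamine lists had no call, and 2 of 9 Purkinje cell genes, Itpr1 and Calb1, were higher.

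Striatal and choroid plexus genes moved in the same SN comparison, with 4 of 10 and 4 of 6 higher in KI in the DESeq2 fit. Their summed levels were 288 to 6435 CPM and 44.0 to 3054 CPM in KI SN, against 278 to 347 CPM and 12.1 to 59.7 CPM in WT SN. KI SN 3 itself held 932 and 419 CPM, both above every WT SN library. Their part in the other lists' changes was not tested. With KI SN 3 as the only KI library, DESeq2 called 206 genes, 1.41%, and edgeR 0, with 1565 at an unadjusted p under 0.05. That DESeq2 fit left 1 glycine gene lower (Slc32a1, the vesicular transporter of GABA and glycine, at -0.98), 2 factors lower (Mab21l1 at -2.83 and Gata3 at -1.63) and no Hox gene, and 6 of 10 striatal genes were higher. KI SN 3 did hold some factors of the list, with 14.0 CPM of En1 and 8.71 CPM of Lmx1b, against 14.0 to 36.2 CPM and 4.04 to 16.0 CPM in WT SN. Others were lower, such as Gata3 at 4.55 CPM against 11.8 to 17.4 CPM and Mab21l1 at 1.79 CPM against 10.9 to 17.8 CPM. All 22 factors of the list summed to 74.5 CPM, against 104 to 163 CPM in WT SN. The 7 brainstem genes of KI SN 3 summed to 2.76 CPM, against 55.4 to 193 CPM in WT SN.

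In VTA, edgeR called 0 of 14490 genes. Unadjusted, 1879 had a p under 0.05, and 185 genes, which is 1.25%, were called by DESeq2. Of the lists above, DESeq2 called Ppp1r17 among the Purkinje cell genes (2.66, SE 0.764, adjusted p = 0.0443), and Slc6a2 (3.60) and Dbh (3.66), the noradrenaline transporter and its synthetic enzyme, all higher in KI. Genes of mature oligodendrocytes moved in the same comparison, with 4 of 8 higher in KI in the DESeq2 fit and a summed level of 25937 to 36533 CPM in KI VTA, against 14008 to 18380 CPM in WT VTA. Of 7 astrocyte genes 2 were higher, with summed levels of 3698 to 5451 CPM in KI VTA, against 2587 to 4890 CPM in WT VTA. In DESeq2 without KI VTA 3, none of the Purkinje cell, noradrenaline, oligodendrocyte or astrocyte genes passed. The share of all genes called in that DESeq2 fit was not computed, so nothing is read from this. With edgeR, 0 of 14686 genes were called without KI VTA 3. Without WT VTA 3 edgeR called 838 genes, 5.72%, and 0 when KI VTA 3 was left out as well, where 2670 had an unadjusted p under 0.05. In the fit without WT VTA 3 alone, Pou4f2 (-2.51), Lhx5 (-0.63) and Slc32a1 (-0.43) were lower in KI, and Dbh (3.95), Slc6a2 (3.29) and Grin2c (0.69), from the granule cell list, were higher. Grin2c was at 45.9 to 50.9 CPM in KI VTA, including KI VTA 1 with its 0.324 CPM of Gabra6, against 27.3 to 39.5 CPM in WT VTA. In the same fit 5 of 8 oligodendrocyte, 3 of 7 astrocyte and 3 of 7 microglial genes were higher in KI and none was lower. The part of these cell types in the other changes was not tested. Slc6a2, the nearest gene of Lbx1 over the 36 libraries, averaged 1.15 ± 0.149 CPM in KI VTA and 0.0948 ± 0.0646 CPM in WT VTA, and was at 0 in KI SN, against 3.27 ± 2.32 CPM in WT SN (SD, n = 3 each).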

How the data were processed

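RNA was read from 36 mouse brain libraries, made with a SMARTER mRNA-seq kit per the labels' protocols and using genome build GRCm38.p6 per the submitters' processing notes. The aligner, counting software and strand setting were not given in the sources used here. The authors deposited estimated counts per gene, 9.88% of which were not whole, and they were rounded to whole numbers here. The authors deposited TPM per gene as well, used only to set genes side by side per length. A further 216 per-sample columns were not used.

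CPM are counts scaled to 1000000 per library, whose totals were 15145623 to 18863508 counts. Genes kept by filterByExpr were scaled by TMM and went into edgeR 4.0.16 (quasi-likelihood test, Benjamini-Hochberg adjusted p, threshold 0.05), with DESeq2 1.42.0 as the alternative, in R 4.3.3, both tested on simulated data. SN and VTA were fitted separately by genotype, and midbrain against other regions within each genotype over 6 region groups. Alternatives were another normalisation, no filter, a replicate block, leaving out each library and leaving out doubted libraries; those that leave out KI VTA 2 or KI VTA 3 with WT VTA 3, and DESeq2 with a block or without libraries, were chosen after seeing the data. Correlations used log2(CPM + 0.5).

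The members and lists were chosen with earlier results of these data known. Named besides the 10 genes are the 3 most correlated genes of each with at least 10 counts in at least 3 libraries, the called list genes with the largest log2 fold change (up to 4 per list and comparison), and list genes that stand beside a result. Replicates were compared by chi-square, and no duplicate deposit was found among them. Promoter windows and positions are from RefSeq, GRCm38.p6.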

Additional observations from a re-analysis of the deposited data

Results flagged for a closer look

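For 3 genes, every KI library lay below every WT library in SN and above every WT library in VTA. The KI minus WT difference of mean log2(CPM + 0.5) in SN, minus the same difference in VTA, was -4.06 for Evx1, -3.80 for Evx2 and -3.17 for Lbx1. This difference between regions was not tested. KI SN 1, KI SN 2 and WT VTA 3, which lacked dopamine neuron markers, are on the low side of each, and their part in it was not tested. KI SN 3, which held those markers, had 0 counts of Evx1, 1 of Evx2 and 2 of Lbx1.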

How the results depend on the processing

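The count of genes called depended strongly on the tool and the libraries. In SN, 0 genes with edgeR became 990 with DESeq2, 206 with DESeq2 without KI SN 1 and KI SN 2, and 0 to 383 on leaving out each library. In VTA, 0 became 185 with DESeq2, 838 with edgeR and 1798 with DESeq2 without WT VTA 3, 1720 without WT VTA 3 and KI VTA 2, and 0 to 838 on leaving out each library. For midbrain in KI, 0 became 986 with DESeq2, 4972 with edgeR and 5191 with DESeq2 without the 6 doubted libraries, and 0 to 3161 on leaving out each library. For midbrain in WT, 5721 became 8612 with edgeR and 8699 with DESeq2 without WT Nac 2 and WT VTA 3, and 3788 (without WT SN 1) to 7775 on leaving out each library. The causes were not tested. Another normalisation and no filter on low counts kept each count within 1.5 times. Slc6a5 reached 5 CPM in 9 libraries also on TMM-scaled CPM. Of the 30 nearest genes, 22 were the same with a pseudocount of 1.

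Same-numbered KI and WT libraries did not deviate together, with correlations of -0.11 to 0.10 in SN and -0.09 to 0.01 in VTA. With libraries of other tissue among them, these values cannot exclude a pairing. Between regions, same-numbered libraries of a genotype had correlations of -0.60 to 0.69. Whether a number stands for the same mouse was not tested, and the main fits treat libraries as independent. With the replicate block edgeR called 13 genes in SN, 0 in VTA, 1 for midbrain in KI and 5997 for midbrain in WT, and DESeq2 called 1087, 37, 1232 and 6564.

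Of 661 recomputed fold changes of the 10 genes, 98 moved by more than the replicate SD and 12 had another sign, 4 of them on leaving out a single library. These were Cbln3 in SN and Mab21l2, Pax7 and Barhl1 in VTA. With 3 libraries a group and few counts of Evx1, Evx2, Lbx1, Gabra6 and Pcp2 outside a few libraries, their low levels are limited by depth.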
